A study of Mus musculus with 6 samples.

Results

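The 10 genes of the core circadian clock loop were followed in mouse hearts with a cardiomyocyte deletion of Mrps5, which encodes a component of the mitochondrial ribosome. They were chosen by name: Arntl, Clock and Npas2 form the positive limb, and Per1, Per2, Per3, Cry1, Cry2, Nr1d1 and Nr1d2 form the negative limb. All 10 were found once each among the 54532 genes of the deposited table. Poly-A RNA was sequenced from the heart tissue of 6 mice, 3 of genotype Mrps5 fl/fl (Ctrl) and 3 of genotype Mrps5 fl/fl; MCM (cKO). The methods of the study name ventricular tissue, but atrial markers were present and uneven between hearts, as given below. MCM is a transgene in which the αMHC promoter drives the tamoxifen-inducible recombinase MerCreMer in cardiomyocytes, so that other cell types of the heart keep Mrps5. Mice of both groups were given tamoxifen at 45 mg per kg per day on 5 days from 8 weeks of age, and hearts were taken 12 weeks later, at 20 weeks of age by the labels. The methods of the study instead describe the sequenced littermates as 12 weeks old, and which applies was not resolved. The control mice lack MCM, and effects of the transgene cannot be told apart from those of the deletion. The hour of day at which hearts were taken was not given in the sources used here, and its part in any difference between the groups was not tested.

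The clock loop is a feedback circuit that runs in nearly every cell, cardiomyocytes included. The product of Arntl (BMAL1) pairs with CLOCK or its relative NPAS2 and binds E-box sequences, and this drives transcription of the Per, Cry and Nr1d genes. PER and CRY proteins then block BMAL1 and its partners, while the NR1D receptors (REV-ERBs) silence Arntl and other genes of the positive limb through RORE sequences, where ROR receptors activate. In the heart the circuit times metabolic and ion channel genes, and the transcripts of most members rise and fall over the day, the positive limb in opposite phase to the Nr1d genes.

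Promoter windows of the loop are shown because they carry the sequences through which the limbs are wired to each other. RefSeq windows (GRCm38.p6, 250 bases before to 50 bases after a start) were found for 9 of the 10 members, 13 windows in all, and Per2 was the member with none. Capitals mark matches on either strand to the E-box CACGTG, the E′-box CACGTT, the D-box TTATGNAA or the RORE, and no match overlapped another.
Arntl (chr7:113207261-113207560, plus strand): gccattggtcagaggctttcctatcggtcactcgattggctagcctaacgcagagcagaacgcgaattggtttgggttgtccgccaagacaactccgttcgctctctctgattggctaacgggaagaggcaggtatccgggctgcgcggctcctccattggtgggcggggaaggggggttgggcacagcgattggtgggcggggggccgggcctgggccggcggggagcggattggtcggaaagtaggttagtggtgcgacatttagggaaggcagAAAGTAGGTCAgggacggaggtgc
Per1 (chr11:69098699-69098998, plus strand): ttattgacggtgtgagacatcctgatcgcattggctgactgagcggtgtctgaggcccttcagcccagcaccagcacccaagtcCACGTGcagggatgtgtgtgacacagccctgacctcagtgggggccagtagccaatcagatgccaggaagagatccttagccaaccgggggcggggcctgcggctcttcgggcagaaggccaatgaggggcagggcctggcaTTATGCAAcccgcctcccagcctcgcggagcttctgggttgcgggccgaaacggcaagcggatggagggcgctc
Per3 (chr4:151044616-151044915, minus strand): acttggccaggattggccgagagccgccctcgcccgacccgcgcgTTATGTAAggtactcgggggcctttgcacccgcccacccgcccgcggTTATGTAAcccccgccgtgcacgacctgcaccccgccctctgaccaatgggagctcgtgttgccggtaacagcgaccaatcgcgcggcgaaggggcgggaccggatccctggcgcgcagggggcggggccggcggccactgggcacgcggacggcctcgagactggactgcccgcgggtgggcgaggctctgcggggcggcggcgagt
Cry1 (chr10:85185005-85185304, minus strand): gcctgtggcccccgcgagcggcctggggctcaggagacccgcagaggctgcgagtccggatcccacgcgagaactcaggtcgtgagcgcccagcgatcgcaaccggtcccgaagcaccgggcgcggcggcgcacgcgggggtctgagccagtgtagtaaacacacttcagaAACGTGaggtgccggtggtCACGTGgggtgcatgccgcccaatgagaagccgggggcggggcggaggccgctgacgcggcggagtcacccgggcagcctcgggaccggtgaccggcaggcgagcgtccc
Cry2 (chr2:92434020-92434319, minus strand): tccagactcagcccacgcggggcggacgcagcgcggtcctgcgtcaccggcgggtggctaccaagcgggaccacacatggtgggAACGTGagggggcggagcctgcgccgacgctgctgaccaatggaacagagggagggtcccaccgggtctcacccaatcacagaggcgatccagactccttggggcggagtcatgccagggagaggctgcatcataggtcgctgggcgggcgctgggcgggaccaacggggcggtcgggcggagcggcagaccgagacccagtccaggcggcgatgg
Nr1d1 (chr11:98775328-98775627, minus strand): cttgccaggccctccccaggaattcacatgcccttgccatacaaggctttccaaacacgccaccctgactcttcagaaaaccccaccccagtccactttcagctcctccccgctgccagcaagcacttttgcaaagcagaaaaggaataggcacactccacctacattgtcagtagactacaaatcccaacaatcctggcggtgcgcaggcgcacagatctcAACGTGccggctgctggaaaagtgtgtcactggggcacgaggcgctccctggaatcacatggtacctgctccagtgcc
The Arntl window held a RORE at position 27 after the start, a motif present in 0.384% of all 32851 windows. The Per1 window held an E-box at position -166 and a D-box at position -24, and the Per3 window held D-boxes at positions -205 and -158. The Cry1 window held an E-box at position -60 and an E′-box at position -79. An E′-box also stood at position -166 of the Cry2 window and at position -28 of the Nr1d1 window. E-boxes were present in 7.15% of all windows, E′-boxes in 4.68% and D-boxes in 3.38%. The windows of Clock, Npas2 and Nr1d2, and the other window of Arntl and of Per1, held none of these letters, and neither did any member's window hold the CRE TGACGTCA (1.79% of all windows). A match is a description of the letters and not of a bound site.

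The libraries held 15989322 to 24875499 reads assigned to genes, recovered from the deposited values. The library size behind the deposited values was not the read total: it was 0.98, 0.913 and 0.972 times the total in Ctrl replicates 1, 2 and 3 and 1.06 times the total in each cKO library, so the scaling differed by group. Scaling to the read totals, an alternative chosen after the data were seen, gave all genes a median change of 0.09 in place of -0.02 (log2). Mrps5 (chromosome 2, 127587222 to 127606829) measured 5.20, 6.45 and 6.33 FPKM (fragments per kilobase of gene length, scaled to a library size) in the Ctrl hearts against 1.12, 1.23 and 1.31 FPKM in the cKO hearts. The change was -1.65 on the log2 scale (SE 0.0944, limma adjusted p 0.000202), in the direction the labels give. One library stood apart: cKO replicate 2 had 10.7 FPKM of Xist and 0 FPKM of 4 Y-linked genes, which averaged 7.61 to 8.79 FPKM in the other 5 hearts. This is the pattern of a female heart, whereas the study reports the use of male mice alone. Effects of sex were not tested. Values without that heart are therefore also given for Arntl, Per1, Per2, Cry1, Cry2, Nr1d1, Nr1d2 and the limbs. Heart muscle genes that define the labelled tissue were abundant, with means over the 6 hearts of 4510 FPKM for Mb, 3180 FPKM for Myl2 and 3040 FPKM for Myh6. In bulk tissue, fewer cells of a type and less RNA per cell cannot be told apart.

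Of the clock loop, 1 gene of the positive limb and 4 genes of the negative limb differed between the genotypes. Nr1d2, Per3, Cry2 and Per2 fell in cKO hearts, to between 33.6% and 62.3% of the Ctrl mean, and Clock rose to 163%. Per1, Nr1d1, Cry1 and Arntl did not pass the threshold, and Npas2 lay under the filter on low values (a mean of 0.5 FPKM over the 6 hearts). Of the 9 members tested, 4 were lower and 1 was higher at an adjusted p under 0.05. Among all 12944 genes tested, 17.0% were lower and 16.3% were higher, 33.3% in either direction, so that the 1 higher member of 9 was no larger a share than among all genes. The same 4 members were lower and the same 1 was higher without overlap between the groups, as 26.4% of all genes tested were lower and 24.8% higher without overlap (51.2% in either direction), and 5 of 9 members is close to that share. The median log2 fold change of the 9 members was -0.59, and that of all genes tested was -0.02. Fold changes from the fit are on the scale of log2(FPKM + 1), which understates changes, most of all for genes near or under 1 FPKM. With 0.1 added in place of 1, Clock changed by 0.69 in place of 0.54 and Per2 by -0.69 in place of -0.57. When mtDNA-encoded genes were left out of the scaling, 2649 genes were higher and 1621 lower in place of 2110 and 2205, and still 1 member was higher and 4 were lower. Scaled to the read totals, 3273 genes were higher and 1381 lower, 1 member was higher and 3 were lower, and Per2 was the member that no longer passed (log2 fold change -0.45, limma adjusted p 0.054).

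**Figure D1:**
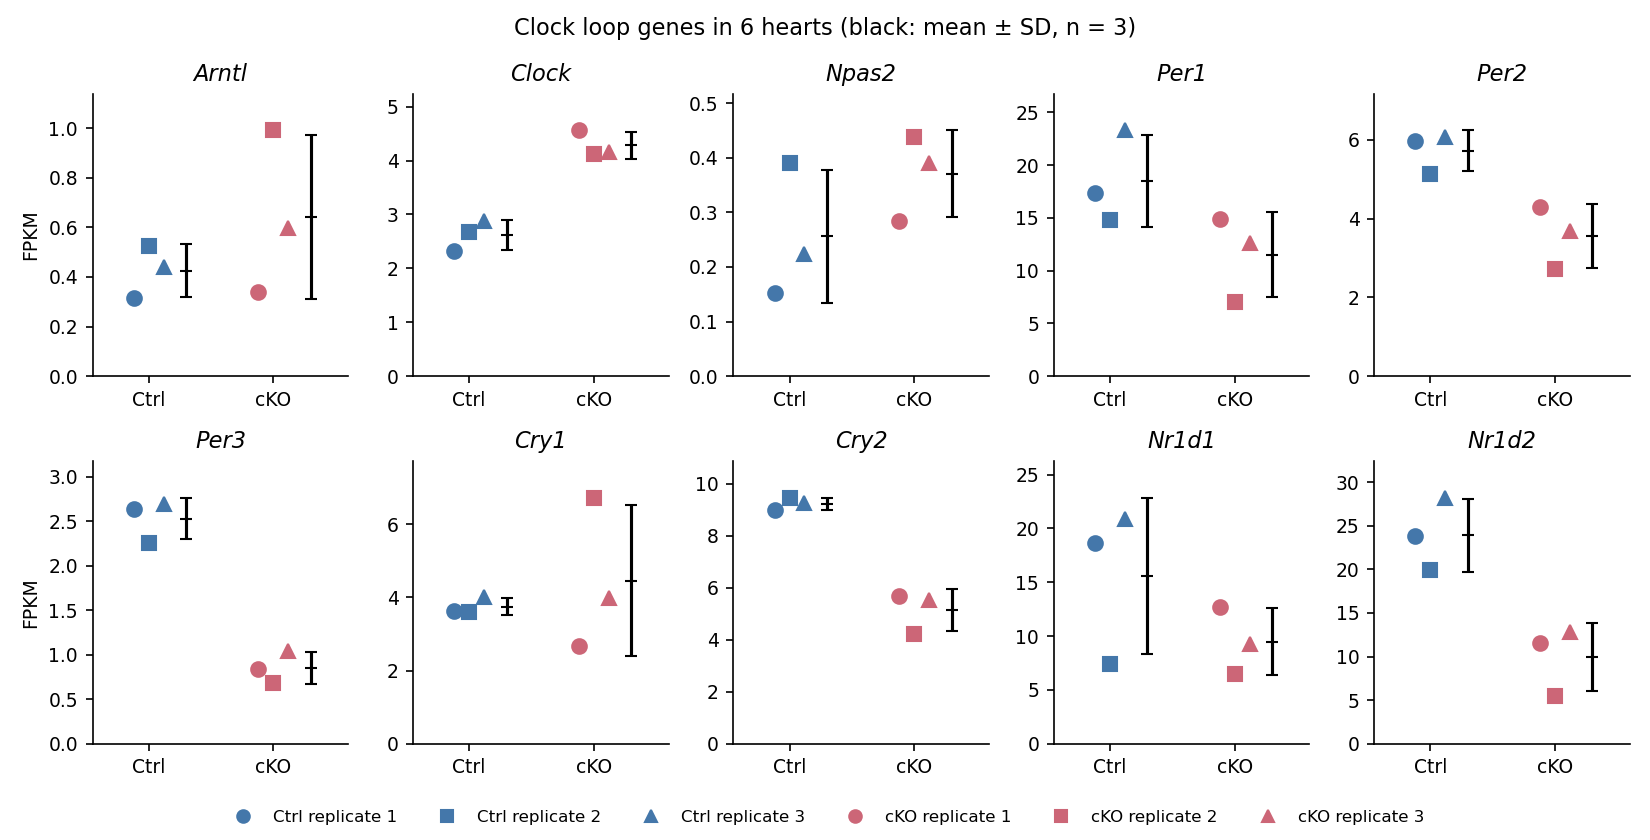
FPKM of the 10 clock loop genes in each heart, with Ctrl hearts in blue and cKO hearts in red, the marker shape giving the replicate and the black bars the mean ± SD (n = 3). The groups do not overlap for Clock, which is higher in cKO, nor for Per2, Per3, Cry2 and Nr1d2, which are lower.

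In the positive limb, Clock rose and Arntl did not pass the threshold, while Npas2 lay under the filter. Clock (ENSMUSG00000029238, chromosome 5, 76209868 to 76304792, minus strand) encodes the bHLH-PAS partner of BMAL1. It measured 2.33, 2.67 and 2.88 FPKM in Ctrl replicates 1, 2 and 3 against 4.56, 4.12 and 4.15 FPKM in cKO. Each cKO heart lay above each Ctrl heart, and the spread within a group was small beside the gap. The means were 2.62 ± 0.277 and 4.28 ± 0.246 FPKM (SD, n = 3 each), with a log2 fold change of 0.54 (SE 0.0849, limma adjusted p 0.00446). This call held in all 17 alternatives, with log2 fold changes from 0.48 to 0.72.

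Arntl (ENSMUSG00000055116, chromosome 7, 113207465 to 113314126, plus strand) measured 0.314, 0.524 and 0.440 FPKM in the Ctrl hearts against 0.338, 0.991 and 0.597 FPKM in the cKO hearts, from 43 to 174 reads. The groups overlapped, since cKO replicate 1 lay within the Ctrl range while cKO replicate 2 was the highest of all hearts. The log2 fold change was 0.19 with a 95% confidence interval of -0.18 to 0.55 (limma adjusted p 0.385). Without cKO replicate 2 the change was 0.04. Npas2 (ENSMUSG00000026077, chromosome 1, 39193731 to 39363236, plus strand), the alternative partner of BMAL1, was lower still, with 0.153, 0.391 and 0.224 FPKM in the Ctrl hearts against 0.284, 0.438 and 0.390 FPKM in the cKO hearts, from 14 to 49 reads. With no filter on low values its log2 difference was 0.13, and the groups overlapped (exact permutation p 0.3, two-sided, where 0.1 is the smallest possible).

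Of the Per genes, whose products are the repressors of the loop that turn over each day, Per3 and Per2 fell in cKO hearts and Per1 did not pass the threshold. Per3 (ENSMUSG00000028957, chromosome 4, 151003652 to 151044665, minus strand) measured 2.64, 2.26 and 2.69 FPKM in the Ctrl hearts against 0.836, 0.678 and 1.04 FPKM in the cKO hearts. The highest cKO heart did not reach the lowest Ctrl heart. The mean fell to 33.6% of Ctrl, from 2.53 ± 0.233 to 0.851 ± 0.181 FPKM, with a log2 fold change of -0.93 (SE 0.101, limma adjusted p 0.00156), and the call held in all 17 alternatives.

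Per2 (ENSMUSG00000055866, chromosome 1, 91415982 to 91459324, minus strand) measured 5.96, 5.12 and 6.07 FPKM in the Ctrl hearts against 4.30, 2.71 and 3.69 FPKM in the cKO hearts. All cKO hearts lay under all Ctrl hearts, and the mean fell from 5.72 ± 0.517 to 3.56 ± 0.803 FPKM (log2 fold change -0.57, SE 0.140, limma adjusted p 0.0209). This call depended on single Ctrl hearts and on the processing. The limma adjusted p was 0.0653 without Ctrl replicate 1, 0.0697 without Ctrl replicate 3, 0.0568 with no filter on low values and 0.054 when scaled to the read totals. Without cKO replicate 2 the log2 fold change was -0.43 (limma adjusted p 0.0256).

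Per1 (ENSMUSG00000020893, chromosome 11, 69095217 to 69109960, plus strand), which light and stress signals can also induce, measured 17.4, 14.8 and 23.3 FPKM in the Ctrl hearts against 14.9, 7.05 and 12.6 FPKM in the cKO hearts. The groups touched, because cKO replicate 1 was level with Ctrl replicate 2. The mean was 62.2% of Ctrl, much as for Per2, but the spread was wider, and the log2 fold change of -0.67 (SE 0.271, 95% confidence interval -1.32 to -0.03) did not pass the threshold (limma adjusted p 0.0975). Without cKO replicate 2 it was -0.39.

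The Cry genes encode the partners of PER in the repressor complex. Cry2 fell, and Cry1 did not pass the threshold. Cry2 (ENSMUSG00000068742, chromosome 2, 92403646 to 92434043, minus strand) measured 8.97, 9.43 and 9.26 FPKM in the Ctrl hearts against 5.67, 4.20 and 5.53 FPKM in the cKO hearts. The Ctrl hearts were nearly level and all cKO hearts lay below them. The mean fell from 9.22 ± 0.230 to 5.13 ± 0.812 FPKM (log2 fold change -0.74, SE 0.108, limma adjusted p 0.00348), and the call held in all 17 alternatives. Without cKO replicate 2 the change was -0.63. An antisense transcript, D930015M05Rik, shares 4.67% of the exon bases of Cry2 and averaged 0.104 FPKM.

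Cry1 (ENSMUSG00000020038, chromosome 10, 85131700 to 85185064, minus strand) measured 3.64, 3.60 and 4.02 FPKM in the Ctrl hearts against 2.67, 6.72 and 3.98 FPKM in the cKO hearts. Here the cKO hearts lay on both sides of the Ctrl hearts, which were again close together. The log2 fold change was 0.13 with a 95% confidence interval of -0.45 to 0.72 (limma adjusted p 0.712), and its sign turned to -0.15 without cKO replicate 2. The ratio of Cry2 to Cry1 FPKM was 2.46, 2.62 and 2.30 in Ctrl and 2.12, 0.625 and 1.39 in cKO hearts, so that Cry2 exceeded Cry1 in all hearts except cKO replicate 2. The ratios did not overlap between the groups, and the difference between the 2 genes' changes was not tested.

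The Nr1d genes, which encode the REV-ERB repressors of the positive limb, were the most abundant members in Ctrl together with Per1. Nr1d2 (ENSMUSG00000021775, chromosome 14, 18204054 to 18239127, minus strand) measured 23.8, 19.9 and 28.2 FPKM in the Ctrl hearts against 11.6, 5.51 and 12.8 FPKM in the cKO hearts. The groups were well apart, and cKO replicate 2 was the lowest heart. The mean fell from 23.9 ± 4.17 to 9.98 ± 3.92 FPKM, 41.7% of Ctrl (log2 fold change -1.24, SE 0.287, limma adjusted p 0.0171). Without cKO replicate 2 the change was smaller, at -0.90, with a limma adjusted p of 0.00839. The limma adjusted p was 0.0502 without Ctrl replicate 1, 0.0595 without Ctrl replicate 3 and 0.0511 with no filter on low values.

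Nr1d1 (ENSMUSG00000020889, chromosome 11, 98767932 to 98775333, minus strand) measured 18.6, 7.38 and 20.9 FPKM in the Ctrl hearts against 12.7, 6.44 and 9.26 FPKM in the cKO hearts. Ctrl replicate 2 lay within the cKO range, and the other Ctrl hearts lay above it. The mean was 60.5% of Ctrl and the log2 fold change was -0.59 (SE 0.388, 95% confidence interval -1.51 to 0.33, limma adjusted p 0.277). Without Ctrl replicate 2 the change was -1.03 and passed the threshold (limma adjusted p 0.0367), whereas it was -0.34 without Ctrl replicate 3 (0.584) and -0.37 without cKO replicate 2 (0.529). Exons of Nr1d1 share 263 of 3077 bases with Thra, the thyroid hormone receptor gene on the opposite strand, and whether counting used the strand was not given in the sources used here. Thra was at 14.8 ± 1.14 FPKM in Ctrl and 15.2 ± 2.03 FPKM in cKO hearts (limma adjusted p 0.806).

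**Figure D2:**
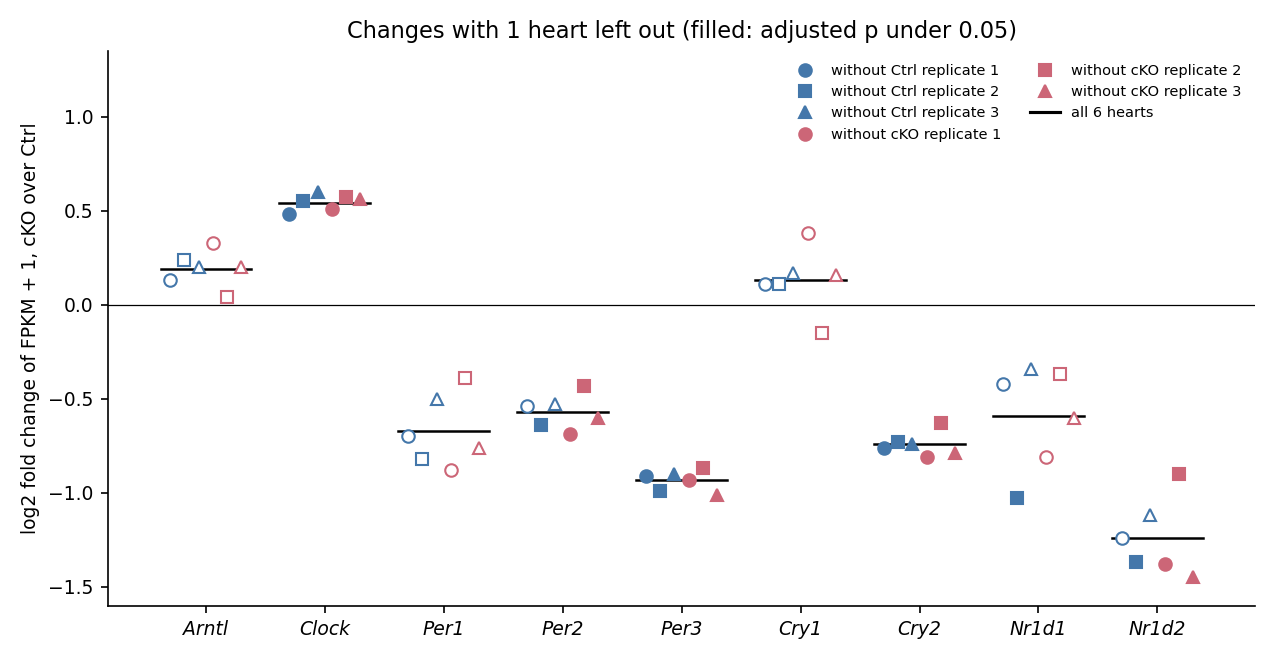
Log2 fold change (cKO over Ctrl, FPKM + 1) of the 9 members tested when each heart in turn was left out, with the black line giving the value from all 6 hearts and filled markers an adjusted p under 0.05. Clock, Per3 and Cry2 stay filled throughout, Per2 and Nr1d2 lose the call without Ctrl replicate 1 or 3, and Cry1 changes sign without cKO replicate 2.

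The limbs were then set against each other within each heart, as the mean log2(FPKM + 1) of the 3 positive genes and of the 7 Per, Cry and Nr1d genes. These are summaries over chosen genes and carry no test. The positive limb was at 0.78, 0.99 and 0.92 in Ctrl and at 1.09, 1.29 and 1.17 in cKO replicates 1, 2 and 3. The negative limb was at 3.33, 3.05 and 3.47 in Ctrl and at 2.76, 2.37 and 2.74 in cKO hearts. The positive limb was higher and the negative limb lower in each cKO heart than in each Ctrl heart. Within the positive limb this held for Clock, while the groups overlapped for Arntl and for Npas2. Within the negative limb it held for Per2, Per3, Cry2 and Nr1d2, while the groups overlapped for Per1, Cry1 and Nr1d1. The difference between the limbs was -2.39 ± 0.283 in Ctrl and -1.44 ± 0.320 in cKO hearts (SD, n = 3 each), a shift of 0.95 towards the positive limb. Within Ctrl it was -2.55, -2.06 and -2.55 in replicates 1, 2 and 3. As the hour of harvest was not given, a difference in daily phase cannot be told apart from one in level. The negative limb changed by -0.66 and the positive limb by 0.29. With Clock left out of the positive limb the shift was 0.82, which still holds the change of the negative limb. It was 1.09 with the Cry genes left out of the negative limb and 0.77 without cKO replicate 2.

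**Figure D3:**
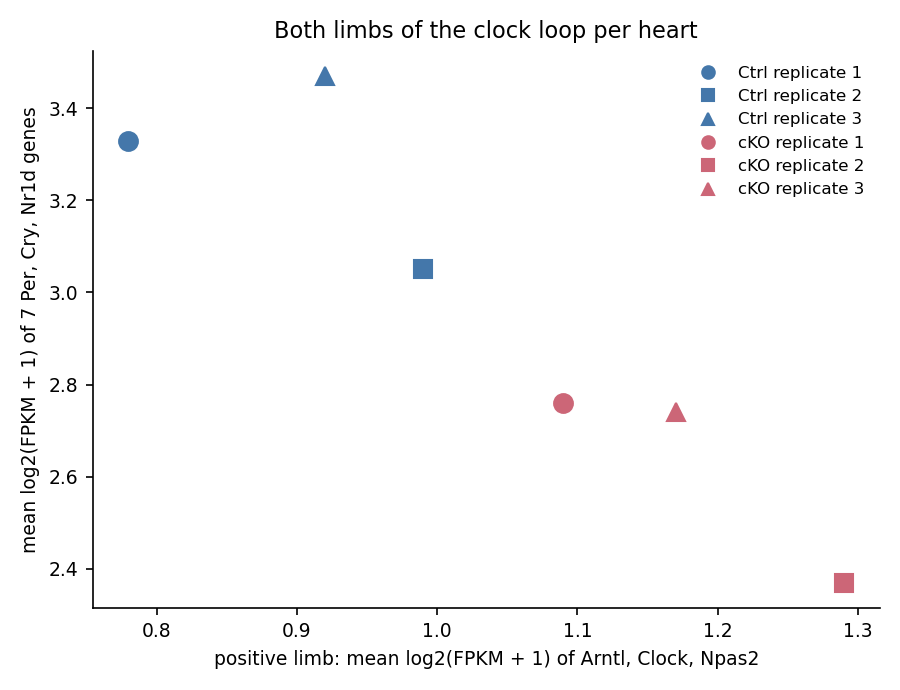
Mean log2(FPKM + 1) of Arntl, Clock and Npas2 (horizontal axis) against that of the 7 Per, Cry and Nr1d genes (vertical axis), with 1 point per heart and both axes starting above 0. The 3 cKO hearts lie to the lower right of the 3 Ctrl hearts, and in either group replicate 2 is the farthest to the lower right.

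Hearts of the same genotype also differed from each other. In Ctrl, replicate 2 had the highest Arntl and Npas2 values and the lowest values of 6 of the 7 Per, Cry and Nr1d genes, Cry2 being the exception, while Clock was highest in replicate 3. In cKO, replicate 2 likewise had the highest Arntl and Npas2 values and the lowest values of 6 of these 7 genes, Cry1 being the exception, but it had the lowest Clock value. The spread within Ctrl was widest for Nr1d1, at 2.83 times between the highest and the lowest heart, and narrowest for Cry2, at 1.05 times. Within cKO it was widest for Arntl, at 2.93 times, and narrowest for Clock, at 1.11 times. Clock thus had little spread within a group and Nr1d1 had much. The labels do not say that hearts of the same number were collected at the same time.

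The order of the levels, compared per length as FPKM, was partly rearranged in cKO hearts. In Ctrl the order ran from Nr1d2 (23.9 FPKM) through Per1 (18.5), Nr1d1 (15.6), Cry2 (9.22), Per2 (5.72), Cry1 (3.75), Clock (2.62) and Per3 (2.53) to Arntl (0.426) and Npas2 (0.256). The ranges over hearts overlapped between Nr1d2 and Per1, Per1 and Nr1d1, Nr1d1 and Cry2, Clock and Per3, and Arntl and Npas2. Even so, Nr1d2 exceeded Per1 and Arntl exceeded Npas2 in 3 of 3 Ctrl hearts, while the other overlapping neighbours kept their order in 2 of 3. In cKO hearts Per1 (11.5 FPKM), Nr1d2 (9.98) and Nr1d1 (9.45) came first with overlapping ranges, followed by Cry2 (5.13), Cry1 (4.46), Clock (4.28) and Per2 (3.56), whose neighbours overlapped as well. Per3 (0.851 FPKM) came next, its range overlapping that of Arntl (0.642), and Npas2 (0.371) was last. Clock and Per3 were level in Ctrl, with a ratio of 0.883, 1.18 and 1.07, while in cKO hearts Clock was at 5.46, 6.09 and 4.0 times the level of Per3. The ratio of Per3 to Per1 was 0.140 ± 0.0212 in Ctrl and 0.0783 ± 0.0204 in cKO hearts, with no overlap. The ratio of Per2 to Per1 was 0.316 ± 0.0483 and 0.322 ± 0.0538, and the ratio of Nr1d2 to Nr1d1 was 1.77 ± 0.798 and 1.05 ± 0.290, and both of these overlapped between the groups.

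Other genes of the clock were examined as lists. Of the ROR receptors, the activators at RORE sequences, Rora fell from 2.55, 2.47 and 2.87 FPKM in the Ctrl hearts to 1.67, 1.42 and 1.97 FPKM in the cKO hearts (log2 fold change -0.44, limma adjusted p 0.0162, and 0.0576 without Ctrl replicate 3). Rorb and Arntl2, a paralog of Arntl, lay under the filter, with Ctrl means of 0.0826 and 0.243 FPKM and cKO means of 0.0741 and 0.218 FPKM.

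Of the 7 regulators that act at E-boxes or D-boxes, 3 fell and none rose past the threshold, and 4 did not pass. Among all genes tested, 17.0% were lower and 16.3% higher. The 3 that fell were Dbp, Tef and Hlf, the PAR-bZIP activators of D-boxes, with log2 fold changes of -1.89, -1.08 and -1.01 (limma adjusted p 0.00732, 0.00668 and 0.00370). Dbp, a direct E-box target, measured 27.0, 13.7 and 25.4 FPKM in the Ctrl hearts against 7.70, 2.96 and 5.19 FPKM in the cKO hearts, and as for Nr1d1 replicate 2 was the lowest Ctrl heart. Ciart, a repressor of the CLOCK-BMAL1 complex, measured 5.66, 3.02 and 7.40 FPKM in the Ctrl hearts against 2.59, 1.99 and 2.92 FPKM in the cKO hearts. The groups did not overlap, and 26.4% of all genes tested were likewise lower without overlap. The change missed the threshold (log2 fold change -0.81, limma adjusted p 0.0526, with 0.0119 without Ctrl replicate 2 and 0.134 without Ctrl replicate 1). The E-box repressors Bhlhe40 and Bhlhe41 had log2 fold changes of 0.26 and 0.44 (limma adjusted p 0.212 and 0.0745), and Bhlhe41 passed without Ctrl replicate 1 (0.0433) or cKO replicate 3 (0.0400) but was at 0.198 without Ctrl replicate 2. Nfil3, the repressor at D-boxes, measured 5.82, 6.74 and 7.35 FPKM in the Ctrl hearts against 5.39, 11 and 15.6 FPKM in the cKO hearts (log2 fold change 0.51, limma adjusted p 0.258). Its change was 0.89 without cKO replicate 1 (limma adjusted p 0.0150) and 0.20 without cKO replicate 3 (0.604).

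**Figure D4:**
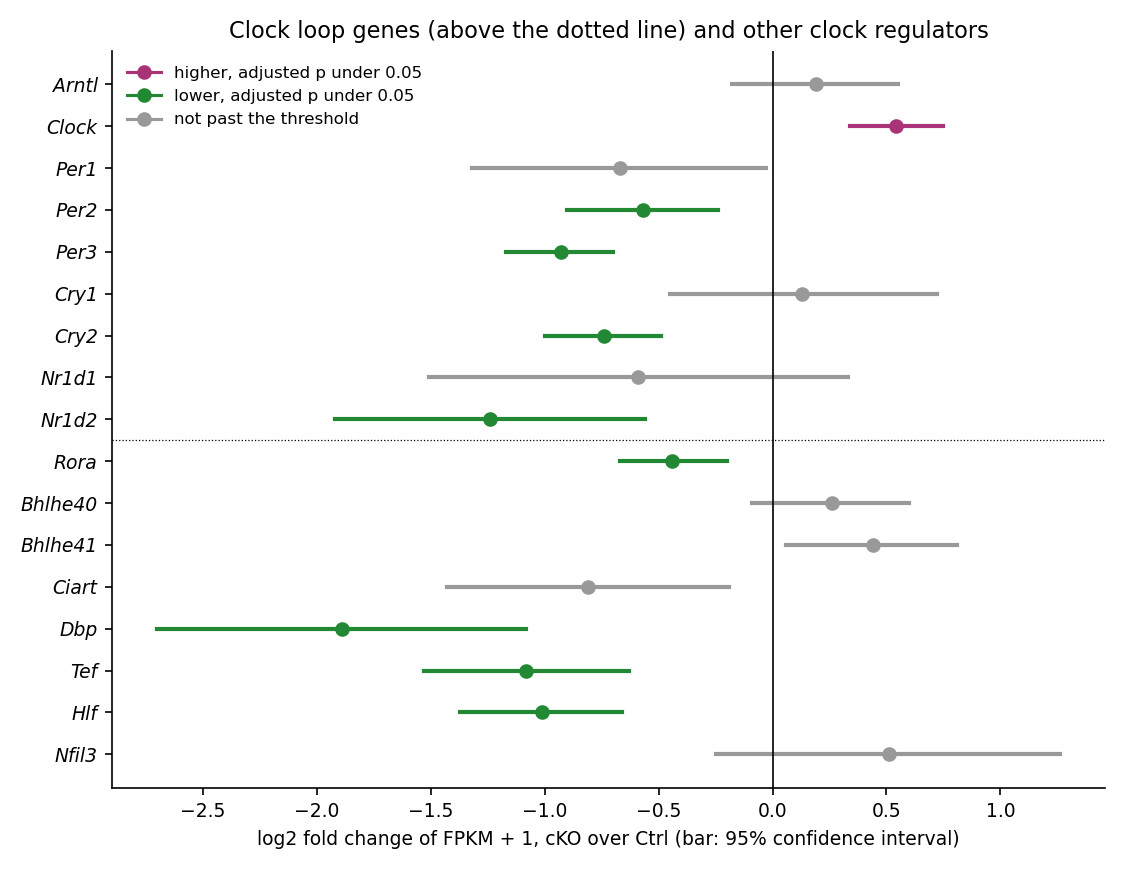
Log2 fold change (cKO over Ctrl, FPKM + 1) with its 95% confidence interval for the 9 clock loop genes tested and, under the dotted line, 8 other regulators of the clock. Clock is the gene past the threshold on the higher side, and Per2, Per3, Cry2, Nr1d2, Rora, Dbp, Tef and Hlf are those past it on the lower side.

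For the lists that follow, the shares of all genes tested that were higher (16.3%) and lower (17.0%) are the background. Enzymes that modify clock proteins did not share a direction. Of 12 kinase and phosphatase genes, Gsk3b rose (log2 fold change 0.52), Csnk1e, a kinase of PER proteins, fell (-0.28) and 10 did not pass, Csnk1d among them. Of 8 tested genes for ubiquitin ligases and proteases, 2 rose and 3 fell. Among them Usp2, a deubiquitinase, fell from 33.7 ± 4.90 to 19.3 ± 2.13 FPKM (-0.77), and Siah2 and Fbxw11 rose (0.49 and 0.34). Of 15 cofactors, 2 rose (Rack1 and Ddb1, 0.52 and 0.37) and 4 fell, among them Hdac3, the deacetylase recruited by the NR1D receptors (-0.40), and Nampt (-1.03). Of 12 genes known to be timed by the clock, 3 rose and 6 fell, with the largest changes past the threshold in Tfrc (1.87), Cdkn1a (1.08), Nampt (-1.03) and Klf15 (-1.0). Over the 54 further clock genes tested, each counted once, 8 were higher and 16 lower beside 16.3% and 17.0% of all genes, with a median log2 fold change of -0.07 against -0.02 for all genes. This balance turned with the scaling: 18 were higher and 10 lower when scaled to the read totals.

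Cell type markers moved with genotype as well. Of 10 cardiomyocyte markers 7 were lower in cKO hearts, and their summed level was 18700 to 22400 FPKM in Ctrl and 10400 to 14300 FPKM in cKO. Of 8 endothelial markers 5 were lower, and their sum was 144 to 168 FPKM in Ctrl and 95.8 to 113 FPKM in cKO. Fibroblast markers gave 3 higher and 1 lower of 8, with sums of 162 to 189 and 163 to 195 FPKM. Mural and smooth muscle markers gave 3 higher and 2 lower of 7 tested, with sums of 765 to 792 and 900 to 1090 FPKM. Most of these sums was Des, 1 of the 3 higher, at 612 ± 12.8 FPKM in Ctrl and 864 ± 112 FPKM in cKO. Rgs5, the next most abundant and 1 of the 2 lower, fell from 123 ± 8.53 to 58.3 ± 6.55 FPKM. The direction of the mural sum is thus that of Des. Leukocyte markers gave 1 lower of 7 tested, with sums of 305 to 417 and 242 to 359 FPKM. None of 5 red blood cell markers passed (sums of 880 to 2060 and 585 to 1590 FPKM), nor did any of 7 atrial markers tested, whose sums were uneven in both groups (138 to 2100 and 585 to 1710 FPKM). None of the lists' markers was at 0 in a group mean, and Tagln and Ptprc lay under the filter on low values. The part of these shifts in the clock results was not tested. A fit with log2 Myl7, an atrial marker, as a covariate concerns uneven atrial content and not these shifts. Myl7 did not pass between the groups (limma adjusted p 0.683). In that fit 1 member was higher and 4 were lower (limma adjusted p 0.0418 for Per2 and 0.0341 for Nr1d2).

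Likeness to a member was described over the 6 hearts. Among 5508 protein-coding genes of at least 5 FPKM, the log2(FPKM + 1) values most like those of Arntl were in Khdrbs1, Tnfaip2, Vegfa, Abra and Mrps2 (Pearson's r from 0.966 to 0.999 over 6 hearts) and those most like Nr1d1 included Stab1, Daxx, App and Alg1 (r from 0.964 to 0.985). For deviations from the group means they were Tnfaip2, Asb2, Khdrbs1, Esrrb and Smtn for Arntl (r from 0.994 to 0.999) and included Fbln1, App, Mfap1b and Cfp for Nr1d1 (r from 0.986 to 0.994). These values describe 6 libraries that share scaling, and with so few hearts many genes reach such values: 205 and 77 genes exceeded an r of 0.9 in the deviations.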

How the data were processed

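Poly-A selected RNA of 3 Ctrl and 3 cKO hearts was sequenced as paired ends. The authors removed low-quality reads, aligned with HISAT2 2.0.5, counted with featureCounts 1.5.0-p3 and deposited FPKM per gene and heart, with the gene length as an other, gene-level value. The labels name mm9, but 53499 of 54409 gene identifiers shared with GENCODE mouse release 21 had its GRCm38 start and end, and coordinates are given as deposited. FPKM times gene length was a whole multiple of 1 step per library for 100% of values (tolerance 0.01 of a read), which gave read numbers and depth, and intervals cover the spread between hearts only.

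The 12944 genes whose mean over the 6 hearts reached 0.5 FPKM were fitted as log2(FPKM + 1) with limma 3.58.1 in R 4.3.3 (lmFit, eBayes with trend, 2 groups, two-sided) and Benjamini-Hochberg adjustment over all of them at 0.05. The authors used DESeq2 on counts, and FPKM calls for a log scale. Overlaps of exons were taken from GENCODE, and promoters from RefSeq. The fit was tested on simulated data.

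Members and lists were chosen with earlier results of these data known. Named are the members, Mrps5, tested ROR, E-box and D-box regulators, at most 4 genes past the threshold by largest change in each other clock list, the 4 most abundant immediate early and glucocorticoid-responsive genes, and 5 genes most like Arntl and Nr1d1. Some genes that this rule names are not reported here. Thra, D930015M05Rik, Csnk1d, marker genes and the immediate early and glucocorticoid-responsive genes past the threshold were named after their values were seen. FPKM were also rescaled to the read totals, chosen after seeing the data. Also tried were another pseudocount (0.1), no filter or a mean of 1 FPKM, other scalings and variance models, voom on recovered reads, a replicate block, log2 Myl7 as covariate and leaving out each heart. Hearts are separate animals by the series' design.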

Additional observations from a re-analysis of the deposited data

How the results depend on the processing

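Clock, Per3 and Cry2 kept direction and call in all 17 alternatives, and Arntl and Cry1 passed in none that tested them. With no filter on low values 2 members were lower in place of 4, as Per2 and Nr1d2 missed the threshold (adjusted p 0.0568 and 0.0511); more genes were then tested. Leaving out one heart gave 2 to 5 members lower and 1 higher, 1434 to 2006 genes lower and 1400 to 1993 genes higher, against 4, 1, 2205 and 2110. The cause was not tested, and these fits hold fewer hearts. Cry1 ran from -0.15 without cKO replicate 2 to 0.38 without cKO replicate 1. The shift between the limbs was 1.31 when 0.1 was the pseudocount and 1.42 in voom on recovered reads, in place of 0.95, since the pseudocount of 1 compresses genes under 1 FPKM such as Arntl and Npas2; leaving out one heart gave 0.77 to 1.11. With the replicate number as a block, 5 members were lower and 1 higher (Per1 was added, adjusted p 0.0358, and its change stayed at -0.67), Bhlhe41 and Ciart passed, and 1874 genes were higher and 1982 lower; deviations of same-numbered hearts correlated at -0.0554, 0.175 and -0.0148, so the numbers were not taken as pairs. With mtDNA-encoded genes left out of the scaling, the median over all genes was 0.05 in place of -0.02 (log2), and 62.0% of calls were higher in place of 48.9%. Scaled to the read totals, an alternative chosen after seeing the data, 3273 genes were higher and 1381 lower (70.3% of calls higher, median 0.09), 3 members were lower, and 18 further clock genes were higher and 10 lower in place of 8 and 16, since the deposited scaling differed by group. Arntl (43 to 174 reads) and Npas2 (14 to 49 reads) were limited by depth.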

Other observations

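Immediate early genes, some of which share inducers with Per1, were followed because Per1 did not pass the threshold. Of 14 tested, 5 were higher and 1 lower in cKO hearts, where 16.3% of all genes tested were higher and 17.0% lower (Fos, Egr1, Egr2, Egr3 and Atf3 against Dusp1; median log2 fold change 0.51). The 4 most abundant were Ier3 (28.3 ± 4.88 FPKM in Ctrl and 36.8 ± 7.11 in cKO), Dusp1, a phosphatase of MAP kinases, which fell (30.5 ± 0.824 to 18.5 ± 5.73, limma adjusted p 0.0375), Jun (24.0 ± 5.39 and 18.0 ± 4.12) and Junb (11.1 ± 4.42 and 19.9 ± 8.25), and of these Dusp1 alone passed the threshold.

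Of 12 glucocorticoid-responsive genes, 1 was higher (Cdkn1a) and 2 were lower (Klf9 and Sult1a1), with a median log2 fold change of -0.46, and 3 of 12 called is under the 33.3% of all genes. The most abundant were Mt1 (451 ± 53.9 FPKM in Ctrl and 437 ± 221 in cKO), Pdk4 (250 ± 47.6 and 234 ± 109), Ddit4 (119 ± 30.5 and 75.2 ± 29.9) and Tsc22d3 (41.2 ± 6.58 and 30.2 ± 7.65), and none of these 4 passed. Klf9, a transcription factor that is also under clock control, fell from 43.4 ± 8.5 to 21.6 ± 4.55 FPKM (limma adjusted p 0.00935).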
